A study of Homo sapiens with 3 samples.

Results

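The S100A genes encode small calcium-binding proteins, and 10 of them with high expression in SUM-149 xenograft tumors were examined: S100A2, S100A4, S100A6, S100A7, S100A8, S100A9, S100A10, S100A11, S100A14 and S100A16. They were taken by name, and all 10 were found among the 29689 gene symbols of the deposited RNAseq table. SUM-149 is a human TNBC (triple-negative breast cancer) cell line, here grown with Matrigel in the mammary fat pads of female Nu/Nu mice, a host that lacks mature T cells. The table holds 1 library of a vehicle tumor, 1 of a tumor given the CDK2i dinaciclib and 1 of a tumor given the EZH2i EPZ6438. The drug names are those of the sample labels, which give 10 days of treatment for both inhibitors and no duration for vehicle. The study's own account of SUM-149 xenografts names GSK343 as the EZH2i in one place, so which of the 2 inhibitors the EZH2i library stands for is not settled here. Dinaciclib also inhibits other cyclin-dependent kinases, and both EZH2 inhibitors block the enzyme that places the repressive methyl mark of Polycomb on histone H3. With 1 library per group, a difference between tumors has no replicate check, so no p-value, SD or SE over replicates can be given. Each treated tumor was compared with the same vehicle library, and both comparisons therefore carry whatever is particular to it.

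S100 proteins bind calcium through EF hands, mostly as dimers, and pass the calcium signal on by binding target proteins. S100A8 and S100A9 form calprotectin, which sequesters zinc and manganese, is abundant in neutrophils and monocytes, and is induced in stressed or inflamed squamous epithelium. S100A7 (psoriasin) is an antimicrobial protein of inflamed skin and is found in some estrogen receptor-negative breast tumors. S100A4 binds non-muscle myosin and is known for its link to metastasis, S100A6 binds CACYBP, S100A10 pairs with annexin A2, and S100A11 binds annexin A1. S100A2 is a p53- and p63-responsive gene of basal epithelial cells. S100A14 is an epithelial family member, and S100A16 is expressed in many tissues.

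Values are given as FPKM (fragments per kilobase of gene length, scaled to library size) or its log2, as deposited, and where 3 values follow each other they stand for the vehicle, CDK2i and EZH2i tumor in that order. FPKM is scaled to gene length, but the lengths used are not given, so levels of different genes can be compared only roughly. For S100A8 all annotated exons cover 891 nt and the canonical transcript 408 nt, while both are 573 nt for S100A9. A gene passed the thresholds when 2 tumors differed by a fold above 2 and the higher of the pair was above log2 FPKM 3, which is 8 FPKM. In the absence of replicates, the spread of a gene is the SD of the EZH2i minus CDK2i differences over the 200 expressed genes nearest in level. It is set beside differences between tumors and measures neither replicate error nor gaps between genes within a tumor. Effects of the inhibitors and noise both enter the spread, which lay between 0.66 and 0.74 for the 10 genes. The libraries held 16.8, 19.1 and 17.5 M fragments for vehicle, CDK2i and EZH2i, as read from the size of a 1-fragment step. The smallest value of any of the 10 genes, S100A4 in the EZH2i tumor, rested on about 945 fragments, so counting error is small against the differences described.

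In the vehicle tumor all 10 genes were among the 347 highest of the table. S100A9 had the highest level with 1092 FPKM, rank 51 of all genes, followed by S100A2 with 1042 FPKM, S100A6 with 820, S100A8 with 743 and S100A14 with 603. S100A11 stood at 460 FPKM, S100A16 at 392, S100A7 at 309 and S100A10 at 244. S100A4 was lowest with 138 FPKM. The order of the genes rests on the gene lengths used, which are not given. Neighbors in this order differed by up to 0.391 log2 units, except that S100A10 lay 0.82 log2 units above S100A4. Together the 10 genes took 1.22% of the summed FPKM with vehicle, compared with 1.49% for CDK2i and 0.843% for EZH2i. S100A8 and S100A9 alone took 0.383%, 0.515% and 0.166%. The order differed between tumors. In the CDK2i tumor S100A9 was highest again, at rank 30, and lay 0.85 log2 units above the next member, S100A14. In the EZH2i tumor S100A2 led with rank 52, S100A11, S100A6 and S100A9 followed with ranks 73, 78 and 84, and S100A4 was last with rank 1028.

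**Figure D1:**
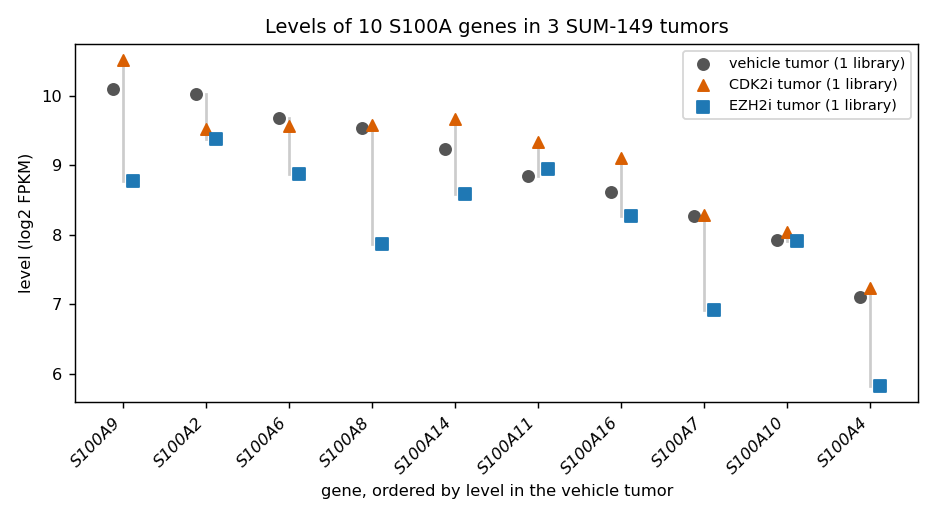
Level of each of the 10 S100A genes (vertical axis, log2 FPKM) for 3 tumors (vehicle, CDK2i, EZH2i), 1 library each, with genes ordered by their vehicle level. Grey lines join the values of a gene. The EZH2i value lies well under the other two for S100A4, S100A7, S100A8 and S100A9, and all 3 values of S100A10 lie between 7.91 and 8.05.

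In the CDK2i tumor none of the 10 genes passed the thresholds against vehicle, where 3.27% of the 6632 genes that could pass were higher and 8.07% lower. Among the 713 genes with transcripts as short as theirs (408 to 1172 nt), 4.21% were higher and 9.26% lower. The median difference of the 10 genes was 0.12 on the log2 scale, against −0.04 over all genes that could pass. Of the 10, 8 had a higher value than vehicle and 2 a lower one. The highest differences belonged to S100A16 (392 FPKM in vehicle, 554 in CDK2i), S100A11 (460 and 648), S100A14 (603 and 811) and S100A9 (1092 and 1460). These log2 differences lay between 0.42 and 0.50, under the spread of each gene. S100A2 differed most in the other direction, with 1042 FPKM in vehicle and 734 in CDK2i, a log2 difference of −0.51. S100A7, S100A8, S100A10, S100A4 and S100A6 lay within 0.13 of their vehicle values on the log2 scale. For these 5 the sign depended on how the libraries were scaled, and so did the sign of the median, which lay between −0.02 and 0.42 over 7 settings.

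In the EZH2i tumor 4 of the 10 genes passed the thresholds as lower than vehicle, where 4.42% of the 7414 genes that could pass were lower. None passed as higher, where 8.93% of all genes did. The 4 genes were S100A8, S100A7, S100A9 and S100A4. The median difference of the 10 genes was −0.73 on the log2 scale, against 0.15 over all genes that could pass, and 9 of the 10 had a lower value than vehicle. The 10 genes have short transcripts, with a median of 568 nt against 3125 nt for expressed genes, and short genes were more often lower in this tumor. Among the 711 genes with a transcript of 408 to 1172 nt, the range of the 10 genes, 13.6% were lower and 2.11% higher. The count of 4 in 10 stands against both backgrounds and has no test.

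S100A8 (chr1:153362508-153363549, minus strand, GRCh37), the smaller calprotectin subunit, had 743 FPKM with vehicle, compared with 762 for CDK2i and 235 for EZH2i. The vehicle and CDK2i values differed by 0.04 on the log2 scale, and the EZH2i value was 3.16-fold lower than vehicle, a log2 difference of −1.66. Of all genes that could pass, 0.890% had a lower change in this tumor. S100A9 (chr1:153330330-153333499, plus strand), the other subunit, reached 1092 FPKM with vehicle, compared with 1460 for CDK2i and 438 for EZH2i. Its EZH2i value was 2.49-fold lower than vehicle, a log2 difference of −1.32. For both subunits the difference from vehicle exceeded the spread, which was 0.71 for S100A8 and 0.69 for S100A9.

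S100A7 (chr1:153430220-153433127, minus strand) measured 309 FPKM with vehicle, compared with 314 for CDK2i and 121 for EZH2i. The CDK2i value matched vehicle within 0.02 on the log2 scale, and the EZH2i value was 2.55-fold lower than vehicle, a log2 difference of −1.35 against a spread of 0.73. S100A4 (chr1:153516089-153522612, minus strand) measured 138 FPKM with vehicle, compared with 151 for CDK2i and 57.0 for EZH2i. Again only the EZH2i tumor was low, 2.42-fold under vehicle with a log2 difference of −1.28 against a spread of 0.66. The annotated span of S100A4 overlaps that of S100A3 on the same strand, and how the authors assigned fragments shared by both is not given in the sources used here.

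Markers of differentiated squamous epithelium, where S100A7, S100A8 and S100A9 are also expressed, summed to 1082, 1781 and 302 FPKM over 12 listed genes, of which SPRR3 was at the listed floor in EZH2i. The low sum in EZH2i came from KRT1 (8.82, 9.72 and 7.04 log2 FPKM) and KRT10 (8.99, 8.99 and 5.41), and the other 10 genes summed to 123 FPKM in vehicle, against 429 in CDK2i and 129 in EZH2i. KRT1 and KRT10 passed as lower in EZH2i, among 6 that could pass with a median difference of −0.13. Over all genes that could pass, 4.42% were lower and the median was 0.15. DSG1 passed as higher, from a vehicle value under the expression minimum. KRT1 and KRT10 were thus lowest where S100A7, S100A8 and S100A9 were, and the other markers in sum were not. Singly, KRT13, LOR, SPRR1A, SPRR1B and SPRR3 were also lowest in EZH2i. IVL, SPRR2A, TGM1 and DSG1 were lowest in vehicle, and CNFN was equal in vehicle and EZH2i. KRT13, LOR and SPRR3 lay under the expression minimum in all 3 tumors. The part of these markers in the S100A values was not tested. In bulk tumors, fewer cells of a type and less RNA per cell cannot be told apart.

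Across expressed genes the EZH2i change ran with the GC content of the transcript (Spearman correlation −0.584 over 9445 genes) and with its length (0.491), while the CDK2i change did not run strongly with either (0.0340 and 0.0945). Genes are not independent replicates, and these correlations describe the libraries. With this trend removed, the log2 difference between EZH2i and vehicle was −1.39 for S100A8, −1.06 for S100A7, −0.91 for S100A4 and −0.81 for S100A9. S100A8 and S100A7 thus stayed past the fold threshold, and S100A4 and S100A9 did not. The part of GC content and length in the deposited differences was not tested beyond this.

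The other 6 genes did not pass the thresholds in the EZH2i tumor. S100A6 (chr1:153507075-153508720, minus strand) measured 820 FPKM with vehicle, compared with 756 for CDK2i and 469 for EZH2i, a log2 difference from vehicle of −0.81 in EZH2i against a spread of 0.72. It passed in 1 of 7 settings, after centring on the median expressed gene (−1.06), and its difference was −0.32 with the trend removed. S100A2 (chr1:153533584-153540366, minus strand) measured 1042 FPKM with vehicle, compared with 734 for CDK2i and 666 for EZH2i, lower than vehicle in both treated tumors but within the spread. S100A14 (chr1:153586731-153589462, minus strand) had 603, 811 and 385 FPKM, and S100A16 (chr1:153579362-153585621, minus strand) had 392, 554 and 308. Both were highest in the CDK2i tumor and lowest in the EZH2i tumor, each within the spread of vehicle.

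S100A10 and S100A11 differed least between the EZH2i tumor and vehicle. S100A10 (chr1:151955391-151966335, minus strand) measured 244 FPKM with vehicle, compared with 264 for CDK2i and 241 for EZH2i. S100A11 (chr1:152004982-152020383, minus strand) had 460, 648 and 492 FPKM. Their log2 differences between EZH2i and vehicle were −0.01 and 0.10, and the sign of each depended on the setting, as did that of S100A16. S100A6 and S100A11 overlap annotated antisense RNA genes, and whether strand was used in counting is not given in the sources used here.

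**Figure D2:**
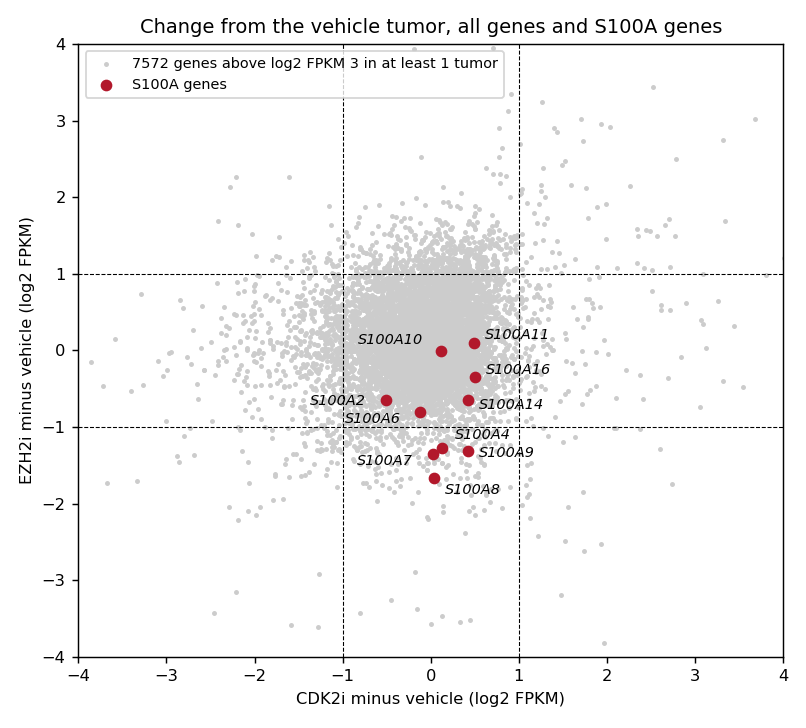
Each grey point is 1 of 7572 genes above log2 FPKM 3 in at least 1 tumor, with its difference from vehicle under CDK2i (horizontal axis, log2 FPKM) and under EZH2i (vertical axis, log2 FPKM); 7 genes lie outside the axes. Red points are the 10 S100A genes and dashed lines mark a fold of 2. S100A4, S100A7, S100A8 and S100A9 lie under the lower line, and none of the 10 lies past either vertical line.

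Set directly against the CDK2i tumor, the EZH2i tumor had lower values for all 10 genes, and 5 of 10 passed the thresholds, where 6.53% of the 7394 genes that could pass were lower. None passed as higher, where 17.5% of all genes did. Within the same range of transcript length, 13.1% of 697 genes were lower and 6.17% higher. The 5 were S100A9, S100A8, S100A4, S100A7 and S100A14. S100A9 differed most, with 1460 FPKM in CDK2i and 438 in EZH2i, a 3.33-fold difference. S100A8 was 3.24-fold lower in EZH2i than in CDK2i, S100A4 2.65-fold, S100A7 2.59-fold and S100A14 2.11-fold. The median log2 difference of the 10 genes was −0.96, against 0.25 over all genes that could pass. The first 4 passed in 7 of 7 settings and S100A14 in 5 of 7.

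Ratios within a library do not depend on how libraries are scaled to each other. Their size, and which gene of a pair is the higher, rest on the gene lengths used, which are not given. They also keep any trend with GC content and length. In deposited FPKM S100A9 exceeded S100A8 in every tumor, by 0.56 log2 units in vehicle, 0.94 in CDK2i and 0.90 in EZH2i. With the length of all annotated exons (891 nt for S100A8, 573 nt for S100A9), the vehicle values stand for about 11118 and 10512 fragments. S100A8 thus had more fragments in vehicle on that reading, and S100A9 had more in the CDK2i and EZH2i tumors. Both calprotectin subunits had their lowest FPKM in the EZH2i tumor, and which subunit is the higher within a tumor is not settled without the lengths. S100A8 lay above S100A10 by 1.61 log2 units in vehicle and 1.53 in CDK2i, and the pair stood level in EZH2i with a difference of −0.04. S100A10 stayed within 0.18 of ANXA2, its annexin partner, in all 3 tumors, at 0.18, 0.13 and 0.11 log2 units above it. S100A14 lay above S100A16 by 0.62, 0.55 and 0.32 log2 units.

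S100A7 has a near-identical copy, S100A7A (koebnerisin), and the coding sequences of 306 nt differ at 12 bases (96.1% identical). The stretch of 90 bases with the most differences (6), bases 82 to 171 of the coding sequence in the GENCODE transcripts on GRCh37, is shown because coding fragments of the pair differ only at such bases, which are in capitals:
S100A7: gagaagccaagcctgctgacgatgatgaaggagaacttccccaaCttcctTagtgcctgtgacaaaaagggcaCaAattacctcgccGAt
S100A7A: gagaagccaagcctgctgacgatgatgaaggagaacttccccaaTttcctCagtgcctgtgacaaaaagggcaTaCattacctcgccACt
Most of the 4280 nt transcript of S100A7A lies outside the coding sequence and was not compared. S100A7A stood at log2 FPKM 3.36 with vehicle, compared with 3.62 for CDK2i and 3.72 for EZH2i. S100A7 lay above it by 4.91, 4.67 and 3.20 log2 units. The S100A7A value was thus not lower in the tumor in which S100A7 was lowest, and fragments of the shared coding sequence could have been split between the pair in a way that is not known here.

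The 80 bases before the start of the canonical transcript of 6 of the genes are shown to compare the 4 that were lower in the EZH2i tumor with the pair that differed least. They are read 5′ to 3′ on the strand of the gene from GRCh37, with the letters TATAAA in capitals. For S100A4 and S100A11 they lie inside the annotated span of the gene, since other transcripts start further upstream:
S100A4 (chr1:153518283-153518362, minus strand): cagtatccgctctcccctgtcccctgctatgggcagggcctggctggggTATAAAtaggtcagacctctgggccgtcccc
S100A7 (chr1:153433128-153433207, minus strand): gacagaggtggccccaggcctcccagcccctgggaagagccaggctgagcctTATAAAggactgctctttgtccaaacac
S100A8 (chr1:153363550-153363629, minus strand): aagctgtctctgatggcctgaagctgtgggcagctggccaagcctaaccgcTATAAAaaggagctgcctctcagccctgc
S100A9 (chr1:153330250-153330329, plus strand): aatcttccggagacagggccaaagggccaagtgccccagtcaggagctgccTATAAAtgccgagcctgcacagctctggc
S100A10 (chr1:151966336-151966415, minus strand): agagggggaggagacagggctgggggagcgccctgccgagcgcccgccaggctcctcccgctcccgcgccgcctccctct
S100A11 (chr1:152009481-152009560, minus strand): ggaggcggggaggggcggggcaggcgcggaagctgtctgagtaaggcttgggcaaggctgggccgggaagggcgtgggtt
TATAAA, the letters of a TATA box, starts 31 bases before that start in S100A4, 28 in S100A7 and 29 in S100A8 and S100A9. In windows of 300 bases (250 before to 50 after the start, both strands), 4 of the 10 genes held these letters, and these were the 4 genes that passed as lower in the EZH2i tumor. That match rests on the exact letters. S100A6 and S100A14, which did not pass and are not shown, hold the near match TATAAG in their 80 bases. Of 19868 windows of protein-coding genes, 9.63% held TATAAA, and the share with TATAAG was not counted. The AP-1 letters TGANTCA were in the window of S100A2 alone (5.41% of all windows). The C/EBP letters TTNNGNAA were in those of S100A6, S100A8, S100A9 and S100A11 (29.0%), and the GC box letters GGGCGG in those of S100A6, S100A9, S100A10 and S100A11 (61.4%). These 4 motifs were chosen after the values of the genes were known, and a match is not evidence of a bound site.

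Sense-strand TATAAA starting 35 to 24 bases before the canonical start was found in 3.82% of windows. Among genes that could pass in the EZH2i tumor, 22 of 146 with it were lower (15.1%) and 19 higher (13.01%), against 3.63% lower and 8.79% higher of 6385 genes without it. The 4 S100A genes are among the 22, and the motif was chosen after their values were known. Transcript length was not matched between genes with and without it. Of the 711 genes with a transcript of 408 to 1172 nt, 13.6% were lower and 2.11% higher in this tumor. The part of TATAAA in the differences was not tested. In the CDK2i tumor 30 of 145 genes with it were higher (20.7%) and 11 lower (7.59%), against 2.83% and 6.76% of 5695 without it, and the 4 S100A genes were in neither count.

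Of 10 other S100 genes listed, 8 were in the table and 4 could pass. None passed in CDK2i and 1 passed in EZH2i, as lower. Over all genes that could pass, 3.27% were higher and 8.07% lower in CDK2i, and 8.93% and 4.42% in EZH2i. The 1 that passed was S100P, which lies on chromosome 4, at log2 FPKM 8.66 with vehicle, compared with 8.80 for CDK2i and 6.55 for EZH2i. S100P was thus low in the EZH2i tumor alone, a log2 difference of −2.11 from vehicle. It holds TATAAA 28 bases before its start, as does S100A7A, which was not lower. S100A12 (calgranulin C), next to S100A8 and S100A9, lay under the expression minimum with about 32 fragments in vehicle, 73 in CDK2i and 3 in EZH2i. The depth-scaled ratio to vehicle was 2.004 in CDK2i (95% exact interval 1.31 to 3.14) and 0.0898 in EZH2i (0.0176 to 0.287), intervals that cover counting error only. S100A3 stood at log2 FPKM 5.43, 4.52 and 5.53, S100A13 at 5.13, 4.67 and 4.67, and S100B at the listed floor in all 3. Of 7 fused-type genes such as FLG (filaggrin), 6 were in the table and none reached the expression minimum.

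Among 12 genes of binding partners, 10 could pass. In CDK2i 1 passed as higher, ANXA1, the partner of S100A11, at log2 FPKM 6.54 with vehicle, compared with 7.90 for CDK2i and 7.11 for EZH2i. In EZH2i TP63 passed as higher (4.15, 4.42 and 5.28) and FABP5, a fatty acid-binding protein known to bind S100A7, as lower (7.37, 7.69 and 6.08). With the GC and length trend removed, the EZH2i difference of TP63 was 0.48, under the fold threshold, and that of FABP5 was −1.29. ANXA2, at 7.75, 7.92 and 7.80, was as level as S100A10. MYH9, the myosin heavy chain bound by S100A4, stood at 6.62, 7.51 and 7.32, while S100A4 was lowest in EZH2i. Over the genes that could pass, the median difference of this list was 0.27 in CDK2i and 0.51 in EZH2i. Over all genes that could pass, the medians were −0.04 and 0.15. In CDK2i 3.27% of those were higher and 8.07% lower, and in EZH2i 8.93% and 4.42%.

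Of 8 receptor genes for secreted S100 proteins, 5 could pass and none did in either treated tumor. With CDK2i 3.27% of all genes that could pass were higher and 8.07% lower. With EZH2i the shares were 8.93% and 4.42%. A count of none in 5 therefore does not set the receptors apart from other genes. BSG (CD147), a receptor of S100A9, stood at log2 FPKM 7.79, 8.30 and 7.34, NPTN, a receptor of S100A8, at 4.47, 5.03 and 5.33, and AGER (RAGE) at 3.67, 3.14 and 3.15. TLR4, which binds calprotectin, was under the minimum in all 3 tumors. The median difference of the 5 receptors from vehicle was 0.39 for CDK2i, where that of all genes that could pass was −0.04. For EZH2i these medians were 0.12 and 0.15.

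Among 19 transcription factors and regulators, 16 could pass in CDK2i and 5 were higher, all of them AP-1 subunits (FOS by 4.64 log2 units, JUNB by 3.55, JUN by 2.84, FOSL1 by 1.27 and JUND by 1.11). In the same tumor no S100A gene passed. In EZH2i 18 could pass and 5 were higher, GRHL3 by 1.65, NFKBIZ by 1.504, FOSL1 by 1.44, TP63 by 1.13 and EGFR by 1.05. With the GC and length trend removed, TP63 (0.48) and EGFR (0.41) were under the fold threshold. GRHL3 (1.52), NFKBIZ (1.04) and FOSL1 (1.73) stayed past it. None was lower in either tumor. Over all genes that could pass, 3.27% were higher and 8.07% lower in CDK2i, and 8.93% and 4.42% in EZH2i. S100A2, a gene responsive to p63, had its lowest deposited value in EZH2i, where TP63 was highest. Its difference from CDK2i was only −0.14 and turned to 0.04 under 1 scaling, and a link with TP63 was not tested. CEBPB stood at log2 FPKM 7.97, 7.65 and 7.57 and KLF4 at 4.63, 5.36 and 4.05. GRHL2 and GRHL3 could pass in EZH2i only through that tumor. The list had medians of 0.35 in CDK2i and 0.11 in EZH2i over the 16 genes above the minimum in vehicle.

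Of 7 cytokine genes known to induce calprotectin in epithelium, 5 were in the table. IL1B stood at log2 FPKM 2.45 with vehicle, compared with 3.34 for CDK2i and 5.58 for EZH2i, IL1A at 1.17, 2.08 and 4.51, and IL36G at 2.85, 4.56 and 5.87. All 3 passed as higher in EZH2i, the tumor with the lowest S100A7, S100A8 and S100A9. In CDK2i IL36G and TNF passed. None of the 5 was above the expression minimum in vehicle, so those that could pass did so through the treated tumor, and no count or median of this list is read. IL6, under the minimum in all 3 tumors, stood at −2.10, −0.01 and −3.16.

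The 10 S100A genes, all above the expression minimum in every tumor, lie in a 1634 kb stretch of chromosome 1 (GRCh37, 151955391 to 153589462), the epidermal differentiation complex, all on the minus strand except S100A9. Each canonical transcript has 3 exons, except that of S100A14 with 4. The table holds 41 other genes between them outside the S100 family, mostly of the cornified envelope. Of 10 that could pass in CDK2i, 9 passed as higher, but 6 of the 10 reached the expression minimum in the CDK2i tumor and not in vehicle, which set their direction. Of the 4 above the minimum in vehicle, 3 passed as higher. Over all genes that could pass in CDK2i, 3.27% were higher, and 4.21% of those with a transcript of 408 to 1172 nt. SPRR1B stood at log2 FPKM 5.36, 7.57 and 5.10 and SPRR2E at 4.15, 5.95 and 5.08. In EZH2i 8 could pass. CRCT1, LCE3D, SPRR2D and SPRR2G passed as higher, each above the minimum in EZH2i and not in vehicle. Of the 4 above it in vehicle, none passed as higher and 2 as lower, the peptidoglycan recognition genes PGLYRP3 (3.61, 4.88 and 2.60) and PGLYRP4 (3.91, 4.51 and 2.68). Over all genes that could pass in EZH2i, 8.93% were higher and 4.42% lower. In the same range of transcript length 13.6% were lower. In chromosome order PGLYRP3, PGLYRP4, S100A9 and S100A8 follow each other among the genes above the minimum, and each passed as lower in EZH2i as deposited. This run was picked from the same values. The log2 differences of PGLYRP3 (−1.009) and PGLYRP4 (−1.23) under other settings are not given here, and that of PGLYRP3 was barely past the threshold. S100A9 did not pass with the GC and length trend removed (−0.81).

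**Figure D3:**
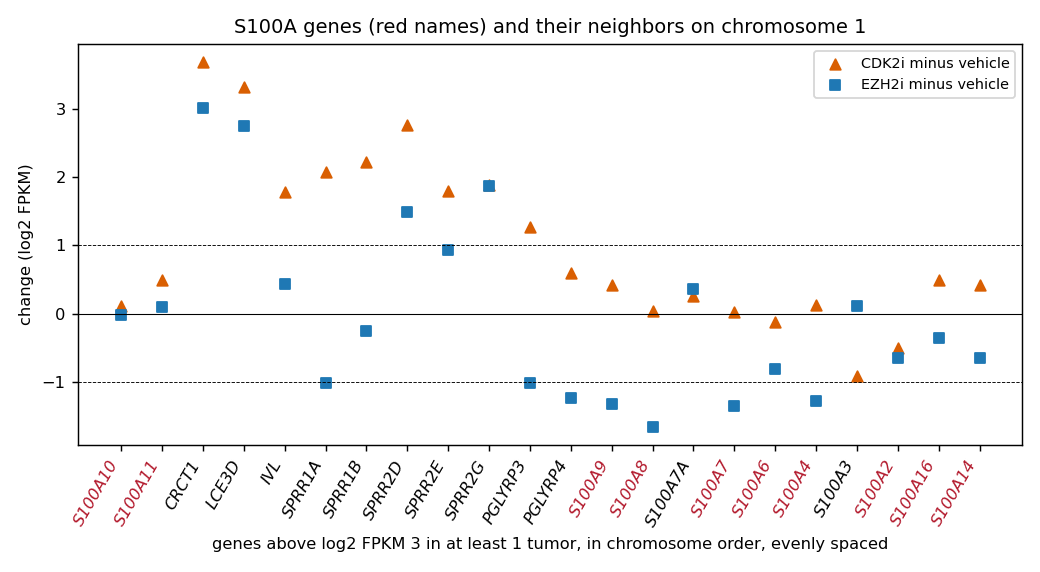
Differences from vehicle under CDK2i (triangles) and EZH2i (squares), on the vertical axis in log2 FPKM, for the S100A genes (red names), S100A3, S100A7A and the other genes between them above log2 FPKM 3 in at least 1 tumor. Genes are in chromosome order and evenly spaced, and dashed lines mark a fold of 2. From PGLYRP3 to S100A8 the deposited EZH2i values lie below the lower dashed line, PGLYRP3 only barely. The triangles of the S100A genes lie between the lines.

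The tumors held markers of a basal-like epithelial line, whose 7 listed genes summed to 6322 FPKM in vehicle, then 15269 in CDK2i and 6150 in EZH2i. Neutrophil and monocyte markers, the usual source of calprotectin in blood, summed to 17.9, 16.3 and 9.97 FPKM over 11 of 12 listed genes, against 743 FPKM for S100A8 and 1092 for S100A9 in vehicle. CD14 stood at log2 FPKM 3.004, 2.991 and 1.654. It was the only 1 of them that could pass, just above the minimum in vehicle, and it passed as lower in EZH2i. There 4.42% of all genes that could pass were lower. Of 8 markers above the floor in both vehicle and EZH2i, 6 were lower in EZH2i and 2 higher. The part of such cells in the S100A8 and S100A9 values was not tested. PTPRC, the pan-leukocyte marker, stood at log2 FPKM −5.48 and −5.67 in vehicle and CDK2i and at the floor of −9 in EZH2i, and MPO, ELANE and CXCR2 were at the floor in at least 1. These are human symbols in a mouse host, so they count human cells or mouse reads mapped to the human genome. Macrophage markers summed to 1.07 to 1.97 FPKM, endothelial to 0.734 to 0.927 and fibroblast to 25.04 to 39.2. Breast epithelial markers summed to 1442, 1244 and 763 FPKM over 5 genes, with KRT19 the highest in each tumor. In EZH2i KRT19 alone of the 5 passed as lower (log2 FPKM 10.16, 9.79 and 8.92), where 4.42% of all genes that could pass did. Of the 5, 3 were higher than vehicle there and 2 lower, with a median difference of 0.25 against 0.15 over all genes that could pass.

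The genes whose pair of differences (CDK2i and EZH2i, each against vehicle) lay nearest to that of S100A9 were BCAM, FABP5 and BNIPL, at distances of 0.0836 to 0.130 log2 units among 6215 candidates with a mean log2 FPKM above 3. BCAM had log2 FPKM of 6.41, 6.80 and 5.17. Nearest to S100A8 were FN3K, INHA and AL807752.1, to S100A7 GGT1, TP53TG1 and TMPRSS5, and to S100A2 MRPS21, UBXN1 and RPL3P4. Within 0.25 log2 units lay 11 genes for S100A8, 22 for S100A9, 27 for S100A7 and 177 for S100A2. S100A2, which lies nearest of these 4 to the center of the plot of both differences, had the most.

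**Figure D4:**
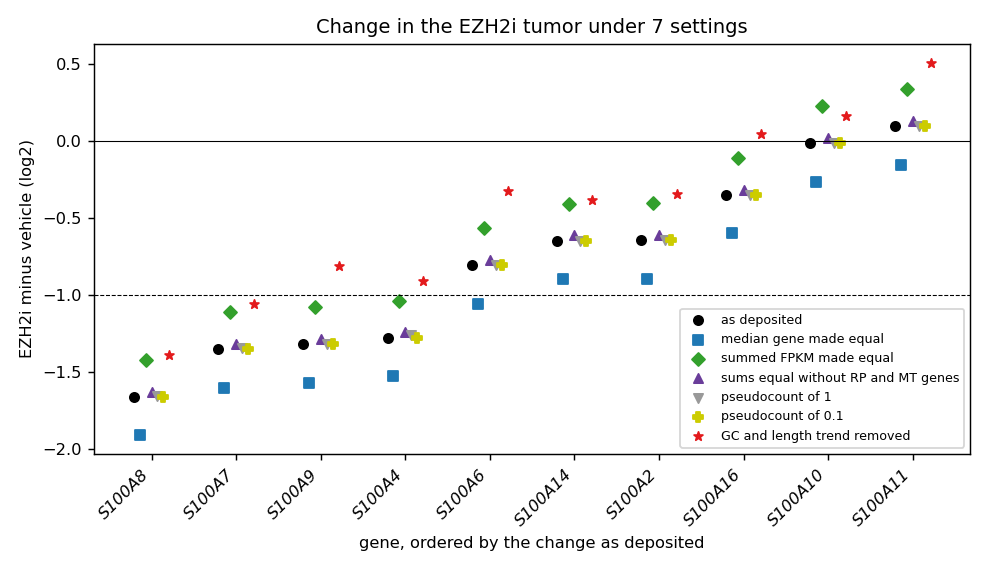
Difference between EZH2i and vehicle (vertical axis, log2) for each S100A gene under 7 settings of the scaling, pseudocount and trend removal, ordered by the deposited value; the dashed line marks a fold of 2. S100A8 and S100A7 lie below it in 7 of 7 settings, and S100A4 and S100A9 in 6 of 7, with the exception of the GC and length trend removed.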

How the data were processed

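RNA was isolated from SUM-149 xenograft tumors and sequenced on an Illumina platform. The submitters' processing notes name CASAVA, STAR and the genome build hg19 (GRCh37). The counting tool, gene lengths and annotation release are not given in the sources used here. The authors deposited log2 FPKM per gene symbol, with no pseudocount and −9 where no fragment was found. Depth was read from the step of 1 fragment in low values, with exon lengths of GENCODE 44 on GRCh37, and fragment counts are approximate for that reason. Differences are plain differences of deposited values. No test was run with 1 library per group.

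A gene counted as expressed with a mean log2 FPKM above 1 if none of its values was −9. Of these, 85.8% matched a transcript with GC content and length. A cubic trend over both, fitted without ribosomal protein genes, was removed as an alternative, which also sets the mean fitted gene to 0. Other settings were the scaling, a pseudocount of 1 or 0.1, and the fold and expression thresholds. The members, lists and alternatives were chosen with earlier results of these data known, and the background by transcript length, the counts over genes above the minimum in vehicle and the motifs after the values were seen. Named genes outside the 10 come from the lists described in the report, from the stretch of chromosome 1 and from the 3 nearest patterns. Upstream and coding sequences were read from the GRCh37 genome and GENCODE transcripts. Calculations were run in Python 3.11.15 with numpy 2.4.6, pandas 2.3.3 and scipy 1.17.1.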

Additional observations from a re-analysis of the deposited data

How the results depend on the processing

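The number of S100A genes lower in the EZH2i tumor than in vehicle, 4 as deposited, was 2 with the GC and length trend removed, 7 at a fold of 1.5 and 1 at a fold of 3. The trend-removed loss was of S100A4 and S100A9. Against the CDK2i tumor the count of 5 was 2 at a fold of 3. Under the other alternatives run, counts stayed within 1.5 times the deposited count and medians moved by less than the spread. The median EZH2i difference lay between −0.98 and −0.36 over 7 settings, and that against CDK2i between −1.39 and −0.78. The CDK2i median turned from 0.12 to −0.02 after equal scaling of sums that leave out ribosomal protein and MT genes. Of the differences of single S100A genes, 7 crossed the fold threshold under an alternative and 173 stayed on their side. Scaling moved all genes. The median EZH2i change of expressed genes was 0.19 as deposited, −0.06 with each library centred and 0.43 with summed FPKM made equal, and the share of higher genes among those past the thresholds was 66.9%, 31.8% and 88.7%, and 42.6% with the trend removed. In CDK2i the medians were −0.11, 0.07 and 0.04 and the shares 28.9%, 50.7% and 46.7%, with −0.26 and 17.4% for that same scaling and 47.9% with the trend removed. Between EZH2i and CDK2i the share was 72.9% as deposited, 28.5% centred and 49.3% with the trend removed. No paired analysis was possible because each group has 1 library and the labels give no replicate numbers, and no library could be left out. The lack of replicates limits these values more than depth does.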
